A study of Mus musculus with 20 samples.

Results

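The Sfmbt2 intron miRNA cluster is the set of miR-297, miR-466, miR-467 and miR-669 genes that lies, for the most part, within 1 intron of the mouse gene Sfmbt2. Its members were taken by name: every row of the deposited tables that names one of these 4 families, either arm, with rows that join several names counted once. The table labelled with size selection held 52 members among 948 mature miRNA rows (72034 rows in all). The table labelled without it held 51 among 875 (59035 rows in all). In all, 60 rows with 69 names were found, 43 of them in both tables, and 15 rows joined several names.

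Small RNA was measured in cauda epididymosomes, the vesicles that epididymal cells release into the lumen of the duct's last segment, where sperm are stored. The MSUS group was 5 males aged 9 months (animals 2, 4, 6, 8 and 14) from litters exposed for 14 days after birth to unpredictable maternal separation, 3 h daily, with unpredictable stress of the dams. The Control group was 5 males of the same age (animals 3, 5, 7, 9 and 11) from litters left alone. The labels name no genotype or strain, and nothing in them ties animals to litters, so p-values here measure the spread between animals that may be littermates. Each library was sequenced in 2 runs, giving 20 samples in 2 tables, and the tables are called here by their labels. The labels go against the content: with size selection, mature miRNAs made up 10.9 to 17.0% of counts, and without it 52.4 to 72.2%. Every direction between tables below therefore refers to the labels, whereas MSUS and Control were compared within a table.

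Sfmbt2 encodes a Polycomb group protein and is imprinted in the mouse, being expressed from the paternal copy in the placenta. The miRNA cluster in its intron is known from mouse and rat, is strongly expressed in trophoblast and in mouse embryonic stem cells, and is needed for normal growth of the mouse placenta. A miRNA hairpin can give a mature miRNA from its 5′ arm (5p) and from its 3′ arm (3p), and the bases near the 5′ end of the mature form, the seed, lead target recognition.

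In the GENCODE vM21 annotation of GRCm38, the build named by the submitters' processing notes, Sfmbt2 lies on the plus strand at chr2:10370510-10595253. The annotation places 119 miRNA genes inside it, of which 72 carry names of the 4 families, Gm25285 only by a RefSeq synonym. All 72 lie in intron 10 of a transcript with 23 exons. They span chr2:10466663-10518279 within an intron of 62472 bases. The remaining 47 have only Gm names; 2 of these had a row in each table, with 20 counts in total in the table with size selection and 12 in the table without. Another 10 hairpins of the 4 families lie outside Sfmbt2, on chromosomes 3, 5, 7, 9, 10, 11 and 13.

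Nearly all member counts came from rows encoded in the intron. Rows whose hairpins all lie inside Sfmbt2 held 91.7% of member counts in the table with size selection (44 of 52 rows) and 88.5% in the table without (44 of 51 rows). The 4 rows with hairpins both inside and outside held 8.15% and 11.3%, nearly all of it miR-297a/b/c-3p, with 5 of its 6 hairpins inside. The 6 members encoded only elsewhere held 0.129% and 0.257%, and no such row had more than 3 counts over 10 libraries. Their mature sequences are shown, with the seed in capitals, because they are the family members without a hairpin in the intron, and because they show how much of a member can be simple CA or UG repeat. The sequences and positions are from RefSeq on GRCm38.p6, which gave a mature sequence for 6 of the 69 names.
miR-466q: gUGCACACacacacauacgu
miR-466i-3p: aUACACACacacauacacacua
miR-467f: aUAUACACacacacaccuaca
miR-467g: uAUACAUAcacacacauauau
miR-467h: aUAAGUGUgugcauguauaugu
miR-669n: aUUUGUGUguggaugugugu
No seed of these 6 was shared with another. In miR-466i-3p (chr13:17747552-17747573, plus strand), 15 of the 21 steps between neighbouring bases were CA or AC, and it had 0.5 counts, in the table with size selection. In miR-669n (chr3:115979905-115979924, plus strand), 13 of 19 were UG or GU, and it had 1 count in the table with size selection. MiR-467h (chr9:115381898-115381919, plus strand) had the most counts of the 6, with 1 in the table with size selection and 3 in the table without.

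**Figure D1:**
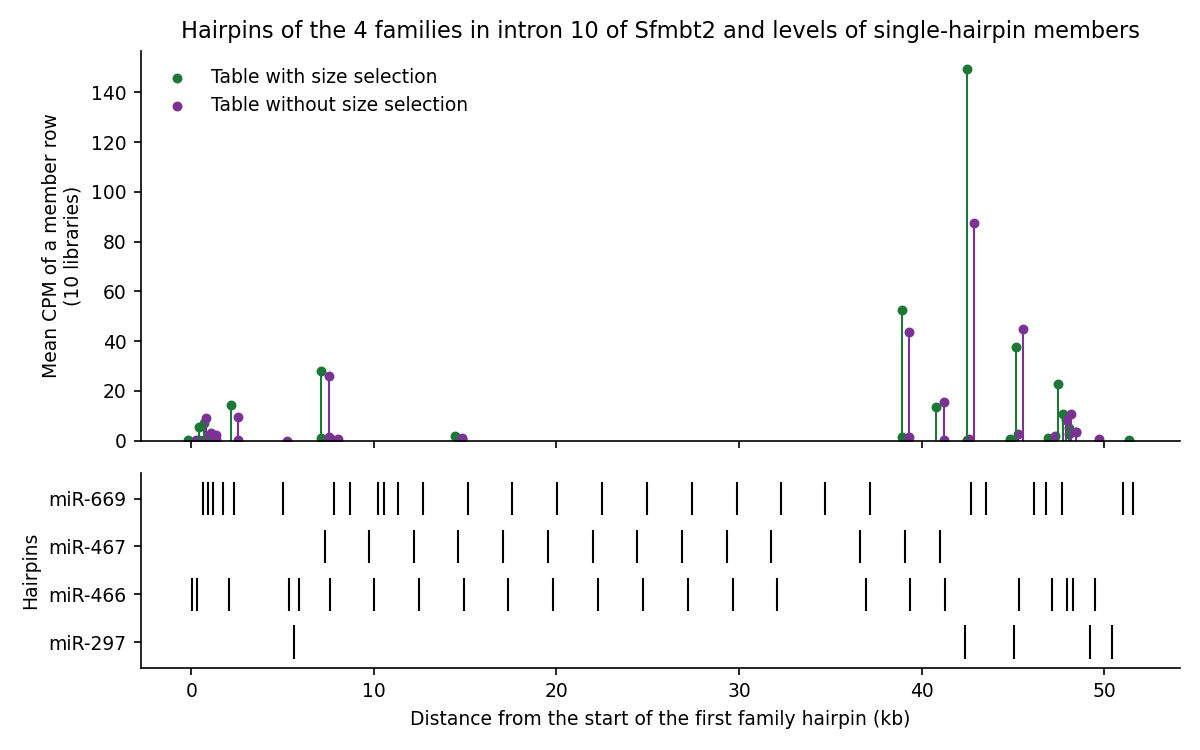
Upper panel: mean CPM over 10 libraries of member rows with 1 name and 1 hairpin in Sfmbt2, at their distance in kb from the first family hairpin; the points of the tables are set slightly apart. Lower panel: the 72 hairpins in the intron, 1 tick each, by family. The tall points are miR-669c-5p (149 and 87.5 CPM), miR-467e-5p (52.6 and 43.7) and miR-466d-3p (37.6 and 45.0), all toward the right end. The next, miR-467c-5p (28.1 and 26.0), lies toward the left end. Rows that join several hairpins, such as miR-467a/b-5p and miR-669a/o-3p, are not drawn, so the panel shows no trend along the intron. The counts of miR-466d-3p were mostly non-whole, so its level is uncertain as that of a single hairpin.

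The members together were a minor part of the epididymosomal miRNAs. They took a median of 0.0772% of miRNA counts in the table with size selection and 0.0727% in the table without, where the let-7 family took 14.1% and 9.73%, and the 10 most abundant miRNAs 65.8% and 68.4%. The X-linked miR-506 superfamily, another rodent-expanded cluster that is prominent in the male reproductive tract, took 1.09% and 0.992%. MiRNA counts per library were 234151 to 550403 and 132141 to 575388, so that the limit a count of 0 allows (3 counts) was 5.45 to 12.8 and 5.21 to 22.7 counts per 1000000 miRNA counts. At this depth 25 of 52 and 23 of 51 members had 5 counts or fewer in all 10 libraries together. Members found in all 10 libraries were 18 of 52 (34.6%), against 366 of 948 miRNAs (38.6%), in the table with size selection, and 12 of 51 (23.5%), against 320 of 875 (36.6%), in the table without. Host gene RNA was also scarce: the Sfmbt2 protein-coding row had 2.83 to 14.25 counts per library in the table with size selection, and 0 to 2.83 in the table without.

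A few members carried most of the signal. The 10 highest rows held 81.8% of member counts in the table with size selection and 82.3% in the table without. By family, miR-669 gave 45.5% and 35.1% of member counts, miR-467 31.1% and 35.1%, miR-466 15.3% and 18.5%, and miR-297 8.06% and 11.3%. Levels below are in CPM, counts per 1000000 of the library's TMM-scaled miRNA total within its table.

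The highest member over all 20 samples was miR-669c-5p, with a mean of 118 CPM. It comes from a single hairpin, Mir669c, at chr2:10509296-10509404 on the plus strand, and its mean was above those of rows fed by 11 to 14 hairpins. That held with size selection but not without, where its 87.5 CPM was below miR-467a/b-5p (111), miR-669a/o-3p (98.3) and miR-297a/b/c-3p (88.9 CPM). Its opposite arm was nearly absent: miR-669c-5p had 559 counts in the table with size selection against 1 count for miR-669c-3p. Next came miR-467a/b-5p (11 hairpins) at 105, miR-669a/o-3p (13 hairpins by name) at 85.6 and miR-297a/b/c-3p at 75.0 CPM. The 13 include Mir669a-3, whose 3p form has its own row, miR-669a-3-3p. The following 8 members averaged 49.1 CPM (miR-467a/d-3p), 48.2 (miR-467e-5p), 41.3 (miR-466d-3p), 40.5 (miR-466a/b/c/e/p-3p, 14 hairpins), 37.7 (miR-669a/p-5p, 14 hairpins), 27.1 (miR-467c-5p), 21.8 (miR-466b/c/p-3p) and 15.6 CPM (miR-669o-5p). Neighbours among the first 10 overlapped in their values, and the top place was not the same in both tables: miR-669c-5p was highest at 149 CPM in the table with size selection, miR-467a/b-5p at 111 CPM in the table without. The highest members stood at rank 161 of 948 and rank 174 of 875 among the miRNAs.

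**Figure D2:**
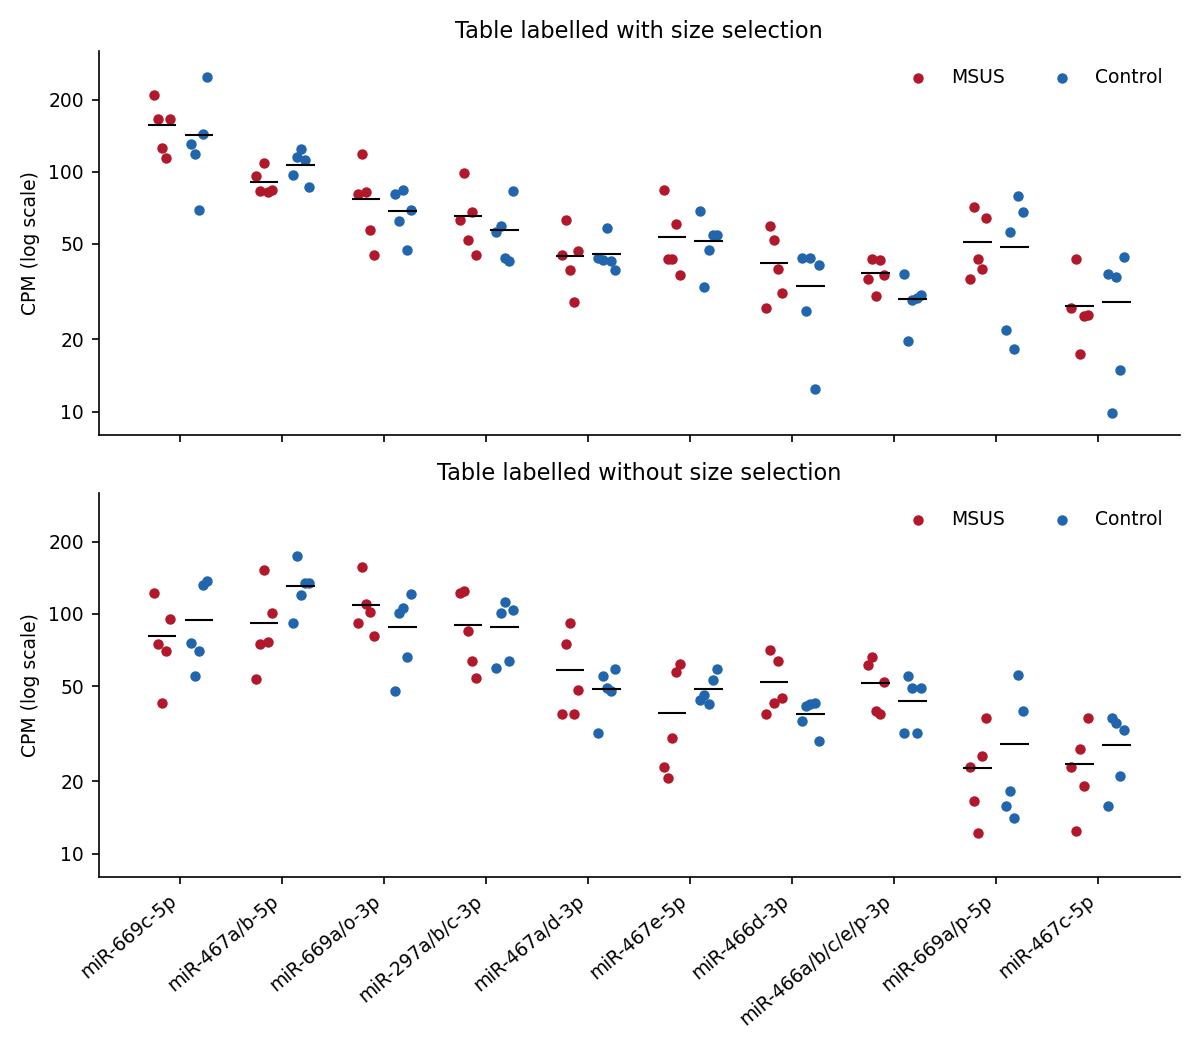
CPM (log scale) of the 10 members with the highest mean over 20 samples, 1 point per library, MSUS left of Control for each member, lines at the group means, one panel per table. The MSUS and Control points overlap for all 10 members in both tables.

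Shared names limit what can be told apart. Non-whole values, as arise when a read is divided among annotations, occurred in 17 of 52 and 16 of 51 member rows. Rows of miR-466, miR-467 and miR-669 with near-identical copies are therefore uncertain as single miRNAs. The row of miR-466d-3p, though named for a single hairpin, had whole values in 1 of 10 libraries with size selection and 0 of 10 without. That of miR-467a/d-3p had whole values in 6 of 10 and 5 of 10. MiR-669c-5p, miR-467e-5p and miR-467c-5p come from 1 hairpin each. The hairpin of miR-467e-5p is at chr2:10505721-10505807 and that of miR-467c-5p at chr2:10473931-10474027, both on the plus strand.

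The main question of the design was whether early-life stress of the males changed the vesicles' RNA, and no member was called changed. The summed member level was 616, 761, 783, 835 and 929 counts per 1000000 miRNA counts in MSUS libraries, against 608, 668, 762, 787 and 962 in Control libraries, in the table with size selection. In the table without, it was 638, 698, 698, 767 and 908 in MSUS libraries, against 631, 705, 748, 833 and 982 in Control libraries. The ranges were nearly the same, and the highest value in both tables was that of Control animal 11. The group means were 785 ± 114 in MSUS and 757 ± 135 in Control libraries with size selection (SD, n = 5 each). On the log2 scale, the ratio of the MSUS mean to the Control mean was 0.05 with and -0.07 without size selection, less than the spread between animals in both tables.

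For single members, edgeR's quasi-likelihood test with Benjamini-Hochberg adjustment was run over all miRNAs that passed a filter on low counts, and a call is an adjusted p under 0.05. In the table with size selection 9 of 52 members passed the filter and 0 were called, where the background was 0.0% of 259 tested miRNAs. In the table without, 7 of 51 passed and 0 were called, where the background was 0.0% of 233. At an unadjusted p under 0.05 there were 0 members in either table, beside 7 (2.7%) and 13 (5.58%) of all tested miRNAs, and DESeq2 and limma voom also called 0 members. In no tested member were MSUS and Control libraries fully separated, a separation seen in 0.386% and 0.0% of tested miRNAs. Log2 fold changes had a median of 0.10 over the 9 members beside 0.028 over all tested miRNAs, and of 0.0048 over the 7 members beside 0.0011 over all.

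The lowest fold change in both tables was that of miR-467a/b-5p. It had 95.7, 82.9, 109, 82.0 and 83.9 CPM in MSUS animals 2, 4, 6, 8 and 14, against 96.8, 115, 124, 112 and 86.6 CPM in Control animals 3, 5, 7, 9 and 11, with size selection. MSUS animals 4, 8 and 14 lay below every Control value, and animals 2 and 6 lay within the Control range. The log2 fold change was -0.23 (SE 0.21, 95% interval -0.67 to 0.20, adjusted p = 0.980, edgeR), and 0.25 when scaled by all RNAs, which moved the median of all miRNAs to 0.52. Without size selection it had 53.6, 74.6, 152, 76.4 and 101 CPM in the same MSUS animals, against 91.2, 174, 119, 135 and 134 CPM in the Control animals. Here 4 of 5 MSUS animals lay below the Control mean, and MSUS animal 6 was the second highest of all 10. The log2 fold change was -0.45 (SE 0.28, interval -1.03 to 0.13, adjusted p = 0.863, edgeR).

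The highest fold change with size selection was that of the 14-hairpin row miR-466a/b/c/e/p-3p. It had 35.9, 43.4, 30.4, 42.8 and 37.1 CPM in the MSUS animals, against 37.5, 19.8, 29.2, 29.9 and 30.5 CPM in the Control animals. All 5 MSUS values were above the Control mean, while Control animals 3 and 11 stood within the MSUS range. Its log2 fold change was 0.36 (SE 0.29, interval -0.24 to 0.95, adjusted p = 0.980, edgeR), and without size selection 0.25 (SE 0.32, adjusted p = 0.924). The other members with size selection ran from -0.00038 (miR-467a/d-3p) through 0.13 (miR-297a/b/c-3p) to 0.27 (miR-466d-3p, SE 0.34).

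For miR-669c-5p the sign differed between tables. With size selection it had 209, 166, 126, 114 and 166 CPM in the MSUS animals, against 131, 119, 69.3, 144 and 248 CPM in the Control animals, a log2 fold change of 0.10 (SE 0.26). Without, it had 123, 74.6, 42.6, 70.1 and 94.8 CPM in the MSUS animals, against 75.4, 55.0, 70.2, 132 and 138 CPM in the Control animals, a log2 fold change of -0.33 (SE 0.32), which was 0.14 without MSUS 14, Control 9 and Control 11, and 0.0053 when scaled by all RNAs. Control animals 9 and 11 were the highest Control values in both tables. Tested as an interaction, this difference in fold change was 0.38 (SE 0.43, adjusted p = 0.996, edgeR), and 0 of 10 members were called in that test (background 0.0% of 279 miRNAs, 0 at an unadjusted p under 0.05). That fit did not pair the samples of an animal, and with the animal as a block 0 of 10 were called too. Without size selection the remaining members ran from -0.30 (miR-467e-5p, SE 0.34) to 0.29 (miR-669a/o-3p, SE 0.29, and miR-467a/d-3p, SE 0.32). The 95% intervals reached -1.03 (miR-467a/b-5p) and 0.97 (miR-466d-3p) on the log2 scale, and changes inside a member's interval remain compatible with these data.

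**Figure D3:**
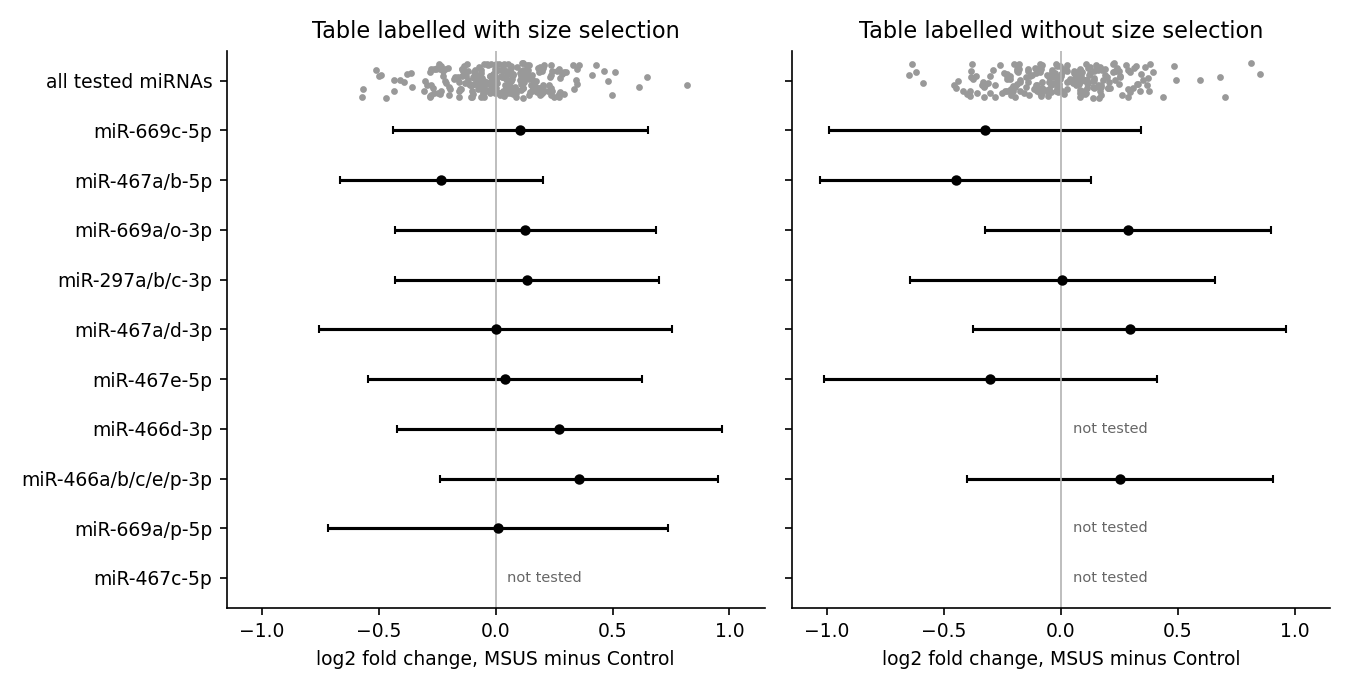
Log2 fold change of MSUS minus Control for the 10 highest members (black points with 95% intervals) and for all tested miRNAs (grey, spread vertically for display), one panel per table. Every interval of a tested member crosses 0, and members that did not pass the filter are marked as not tested.

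Vesicle preparations can carry RNA of several cell types. Transcripts of the epididymal epithelium summed to 748 to 3040 counts per 1000000 in MSUS and 1991 to 4643 in Control libraries with size selection, and 693 to 1348 and 1121 to 1787 without, and 3 of 9 were in all 10 libraries of each table. Lcn9 was at 0 in every library of both tables, and Cst11 in those of the table without. Transcripts of sperm and spermatids summed to 189 to 440 in MSUS and 235 to 415 in Control libraries with size selection. They summed to 177 to 273 and 164 to 250 without. Of these, 8 of 8 were in all 10 libraries with size selection and 6 of 8 without. Those of muscle and stroma summed to 138 to 1019 in MSUS and 286 to 987 in Control libraries with size selection. Without, they summed to 101 to 281 and 155 to 378. Of these muscle and stroma transcripts, 6 of 6 were in all 10 libraries of each table. Of blood cell transcripts, 6 of 6 were in all 10 libraries with size selection and 1 of 6 without. Lists of miRNAs were summed per 1000000 miRNA counts. With size selection, epithelial miRNAs had 94890 to 114398 in MSUS and 107880 to 130047 in Control libraries. Muscle and stroma miRNAs had 87079 to 176613 and 92937 to 122054. Germ cell and ciliated epithelium miRNAs had 6094 to 10578 and 4964 to 7425, and blood miRNAs 1089 to 1555 and 996 to 2339. The part of these cell types in the member levels was not tested.

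Between the tables, 4 of 10 members were called. These 10 are the members that passed the filter in the fit over both tables, which includes members that did not pass in a table alone. Of them, 2 were higher in the table with size selection, both 5p (miR-669a/p-5p and miR-669c-5p), and 2 were lower, both 3p (miR-297a/b/c-3p and miR-466a/b/c/e/p-3p). The background was 22.6% of 279 miRNAs called, 13.6% higher and 8.96% lower, and at an unadjusted p under 0.05 it was 35.5%, beside 5 of 10 members. With the animal as a block, since each animal's library is in both tables, 6 of 10 members were called, 2 higher and 4 lower, where the background was 53.0% (25.8% higher and 27.2% lower), a share near that of the members.

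MiR-669a/p-5p was higher with size selection in every animal. It had 35.9, 71.0, 43.4, 39.2 and 64.4 CPM with size selection against 23.0, 16.6, 12.2, 25.5 and 36.8 CPM without in MSUS animals 2, 4, 6, 8 and 14. In Control animals 3, 5, 7, 9 and 11 it had 21.9, 56.0, 18.2, 79.6 and 67.9 CPM with, against 15.9, 18.3, 14.0, 55.5 and 39.4 CPM without. It was thus higher in 10 of 10 animals, with a log2 difference of 0.81 (SE 0.29, adjusted p = 0.0430, edgeR) and of 0.87 with the block (adjusted p = 3.3e-05). MiR-669c-5p averaged 149 ± 50.9 CPM with and 87.5 ± 33.0 CPM without size selection (SD, n = 10), and was higher in 9 of 10 animals (log2 difference 0.71, SE 0.21, adjusted p = 0.0200, edgeR). With the block its log2 difference was 0.73 (adjusted p = 1.2e-08, edgeR).

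The calls of 3p members were lost under 2 alternatives: with miRNA totals only 2 members were called higher and 0 lower, and with no filter on low counts 3 higher and 0 lower. MiR-297a/b/c-3p averaged 61.1 ± 18.2 CPM with and 88.9 ± 27.2 CPM without size selection (SD, n = 10), and was lower in 9 of 10 animals (log2 difference -0.57, SE 0.20, adjusted p = 0.0430, edgeR). With the block its log2 difference was -0.53 (adjusted p = 0.00045, edgeR). MiR-466a/b/c/e/p-3p averaged 33.6 ± 7.13 CPM with and 47.4 ± 11.9 CPM without, and was lower in 8 of 10 animals (log2 difference -0.53, SE 0.18, adjusted p = 0.0388, edgeR). With the block its log2 difference was -0.54 (adjusted p = 0.012, edgeR). MiR-669a/o-3p, which holds the opposite arm of miR-669a but not of miR-669p, was at 72.8 ± 21.7 CPM with and 98.3 ± 30.1 CPM without. Its log2 difference of -0.50 (SE 0.20) missed the threshold (adjusted p = 0.0653, edgeR) and passed it with the block (adjusted p = 0.00021). MiR-467a/b-5p, a 5p member, ran against the other called 5p members with the block: its log2 difference was -0.25 (adjusted p = 0.276) and -0.27 with the block (adjusted p = 0.0430), with 5 of 10 animals higher. The 4 remaining members, miR-467e-5p, miR-467c-5p, miR-467a/d-3p and miR-466d-3p, were not called in either fit.

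**Figure D4:**
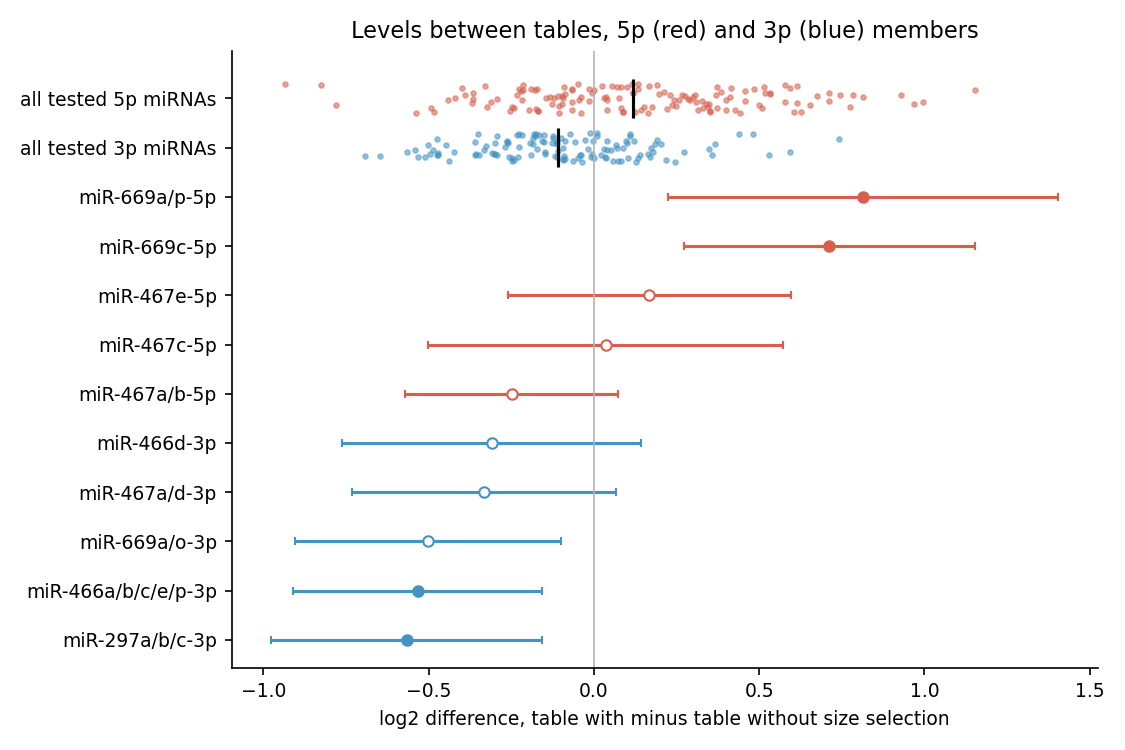
Log2 difference between the table with and the table without size selection, for 5p members (red) and 3p members (blue) with 95% intervals; filled points were called. The upper rows show all tested 5p and 3p miRNAs with their medians (0.12 and -0.11).

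All miRNAs were counted by arm in the same way. Of 143 tested 5p miRNAs, 33 were called higher and 13 lower in the table with size selection, and of 128 tested 3p miRNAs, 3 were called higher and 11 lower. With the block these were 55 higher and 29 lower for 5p, and 14 higher and 45 lower for 3p. The difference between members and all miRNAs of an arm was not tested. The median log2 difference was 0.17 for the 5 tested 5p members, beside 0.12 for all 5p miRNAs, and -0.50 for the 5 tested 3p members, beside -0.11 for all 3p miRNAs. The calls rest on the choice of libraries and scaling: 0 members were called without MSUS animal 4, 1 without MSUS animal 2, MSUS animal 6 or Control animal 5, and 2 without MSUS animal 14, Control animal 7 or Control animal 11. Scaled by all RNAs instead of miRNAs, the median of all miRNAs moved to -3.06 and all 10 members were lower, so the differences here are relative to other miRNAs.

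Arm shares are given in % of 5p plus 3p member counts, leaving out rows named without an arm. In MSUS animals 2, 4, 6, 8 and 14, 5p rows held 65.3, 51.9, 60.6, 55.8 and 67.1% with size selection. Without it they held 43.4, 31.9, 43.3, 44.4 and 54.9%. In Control animals 3, 5, 7, 9 and 11 they held 59.1, 63.3, 54.6, 70.9 and 65.6% with, against 53.4, 48.6, 44.2, 62.7 and 53.9% without. The share was higher with size selection in 10 of 10 animals, and MSUS and Control overlapped in each table. MSUS 14, Control 9 and Control 11, the 3 libraries with the most miRNA counts in both tables and the lowest tRNA share with size selection (14.5 to 25.3% of counts, against 34.6 to 66.0% in the others), also had the highest 5p shares in both tables. They lay at 65.6 to 70.9%, against 51.9 to 65.3% in the other 7, with size selection, and at 53.9 to 62.7%, against 31.9 to 53.4%, without. The part of depth and tRNA share in this was not tested.

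**Figure D5:**
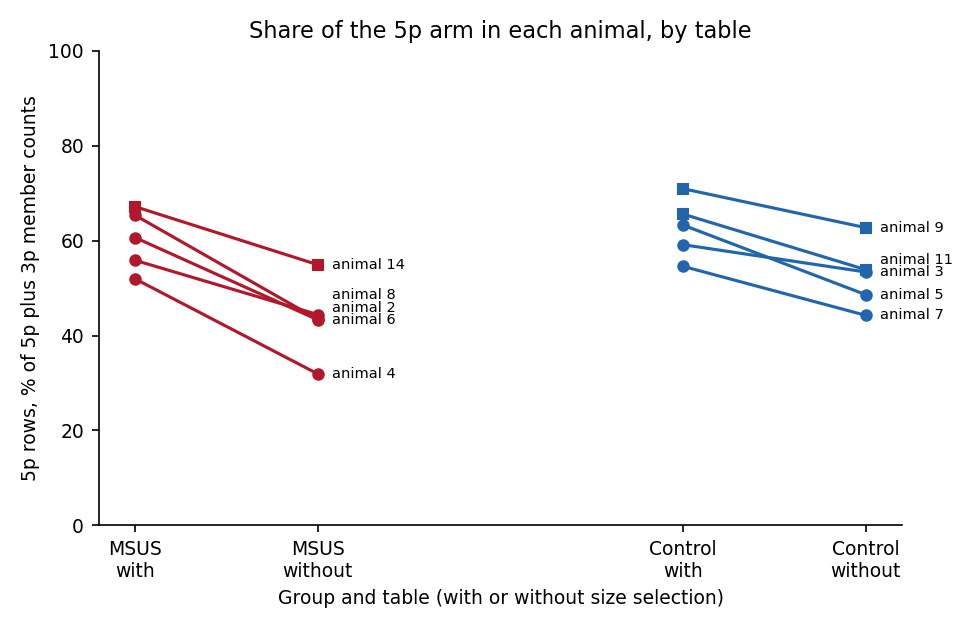
Share of 5p rows among 5p plus 3p member counts for each animal, MSUS left and Control right, with lines joining the table with and the table without size selection; squares are MSUS 14, Control 9 and Control 11. All 10 lines fall, and the squares lie at or near the top of each group.

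Which arm dominated differed between families, and between members of a family. For miR-467a the 5p row (miR-467a/b-5p) exceeded the 3p row (miR-467a/d-3p) in 10 of 10 libraries with size selection, with a median ratio of 2.22, and in 9 of 10 without, with a median of 2.20. For miR-669a the 3p row was usually the larger: the ratio of miR-669a/p-5p to miR-669a/o-3p had a median of 0.640 with size selection, above 1 in 2 of 10 libraries, and of 0.250 without, above 1 in 0 of 10. The miR-669 family, summed over its rows, went the other way. It had 955.5 counts of 5p against 280 of 3p with size selection, and 478.5 against 341 without. MiR-669c-5p alone gave 559 and 283 of these 5p counts. Without that row, 3p counts would exceed 5p counts in the table without size selection, but not in the table with it. The rows of a pair do not join the same hairpins. The 5p rows also join miR-467b or miR-669p, and the 3p rows miR-467d or miR-669o, so these are not ratios of a single hairpin. The medians of miR-467a hide a difference between animals, seen after the values were known and given here with no test. With size selection its ratio was 2.09, 1.34, 2.78, 2.76 and 1.80 in MSUS animals 2, 4, 6, 8 and 14, against 2.21, 2.69, 2.13, 2.65 and 2.22 in Control animals 3, 5, 7, 9 and 11. Without size selection it was 1.40, 1.00, 1.64, 2.00 and 2.09 in the MSUS animals, against 2.88, 3.26, 2.43, 2.78 and 2.30 in the Control animals. Several of these ratios rest on few counts. Their 3p rows had 5, 18, 30.5, 6 and 24.8 counts in the MSUS animals, and 8, 11.7, 7, 18.3 and 35.7 in the Control animals. The groups overlapped with size selection and did not overlap without, where all MSUS ratios were below all Control ratios. Such a separation was seen in 0.0% of 52 and in 5.26% of 38 arm pairs with both rows tested. The latter share is 2 pairs, and miR-467a is among them. The ratio was higher with than without size selection in 4 of 5 MSUS animals and in 0 of 5 Control animals. The share of all arm pairs with such a pattern was not counted. MiR-297 was almost all 3p, with 214 counts of 3p against 5 of 5p with size selection, and 252 against 12 without. MiR-466 was mostly 3p too, with 335 counts of 3p against 42 of 5p with size selection, and 364 against 34 without.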

How the data were processed

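The authors deposited 2 tables of estimated counts with 1 row for each annotated RNA. The submitters' processing notes name the build GRCm38 and, among the tools, STAR and edgeR; how reads were given to rows is not stated in these sources. The NEBNext Small RNA kit was used, per the labels' protocols. Run 2 is the table with size selection and run 1 the table without, per the series' design text. Totals per library were 1872084 to 3647956 and 215231 to 871461 counts. Estimated counts of mature miRNA rows were rounded and tested with edgeR 4.0.16 in R 4.3.3 (filterByExpr with a minimum count of 10, TMM, robust quasi-likelihood test, Benjamini-Hochberg adjustment over all tested miRNAs, threshold 0.05), with the miRNA sum as library size. MSUS and Control were compared within each table; both tables entered 1 fit, with condition as a covariate, for the difference between tables, and an interaction for the difference of the MSUS effect. SE come from the quasi-likelihood F statistic. The script was tested on simulated data. Alternatives were DESeq2 1.42.0, limma 3.58.1 (voom), other scaling and filters, unrounded counts, the animal as a block and libraries left out. The replicate numbers pair the samples because each animal's library was sequenced in both runs, per the labels; deviations of 231 miRNAs from the group means correlated at 0.465 to 0.755 within an animal. Named members are the 12 highest by mean CPM, the 3 with the smallest p per direction and table, any member called, and arm pairs. Members, lists and tests were chosen with earlier results of these data known. Intervals of fold changes and of differences between tables were built from these SE, which include the spread between libraries. Limits for a count of 0 cover counting error only.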

Additional observations from a re-analysis of the deposited data

Results flagged for a closer look

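1 of 40 groups of 5 libraries checked held a library far from its group. MiR-467a/d-3p stood at 58.3 CPM in Control 7 of the table with size selection, while the other 4 Control libraries lay between 39.0 and 43.7 CPM. The gap to the nearest was 0.757 of the group's range, above Dixon's 95% critical value for 5 samples. Chance flags about 1 in 20 such groups.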

How the results depend on the processing

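Over 26 member results and their alternatives, 383 of 455 alternative values kept their direction and side of the threshold, 37 changed sign, 27 no longer passed the threshold and 8 newly passed it; causes were not tested. No member was called for MSUS or for its difference between tables under any alternative run. With size selection, scaling by all RNAs, which moved the median of all miRNAs to 0.52, gave 0.25 for miR-467a/b-5p and 0.45 for miR-467a/d-3p, and without size selection (median 0.29) it gave 0.0053 for miR-669c-5p. MiR-669a/p-5p was at -0.0042 with DESeq2 size factors, -0.0069 with miRNA totals only and -0.0032 with no filter; miR-467e-5p was at -0.0020 with limma voom; miR-467a/d-3p was at 0.0047 with unrounded counts. Without size selection, miR-297a/b/c-3p was at -0.025 with miRNA totals only, -0.010 with no filter and -0.085 with limma voom, and miR-669c-5p was at 0.14 without MSUS 14, Control 9 and Control 11. Leaving out 1 animal with size selection gave -0.060 to 0.42 for miR-669c-5p, -0.20 to 0.17 for miR-467e-5p, -0.079 to 0.29 for miR-669a/o-3p, -0.052 to 0.34 for miR-297a/b/c-3p, -0.13 to 0.11 for miR-467a/d-3p and -0.17 to 0.25 for miR-669a/p-5p, and without it -0.17 to 0.22 for miR-297a/b/c-3p.

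Between tables, the count of called members was 4, and 0 to 5 with 1 animal left out. It was 2 with miRNA totals only and 3 with no filter, all higher with size selection, and 10 when scaled by all RNAs, where miR-669c-5p went to -2.35, miR-467e-5p to -2.88, miR-669a/p-5p to -2.25 and miR-467c-5p to -3.01. The log2 difference of miR-467c-5p ran from -0.10 to 0.17 with 1 animal left out. With the animal as a replicate block 6 members were called, of which miR-669a/o-3p and miR-467a/b-5p were added; with the block and miRNA totals only 5, and with the block and MSUS 14, Control 9 and Control 11 left out 3, both chosen after seeing the data. MiR-466a/b/c/e/p-3p was no longer called without these 3 libraries (adjusted p = 0.138, edgeR). Depth limits the result, since 9 of 52 and 7 of 51 members had enough counts to be tested.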
